A study of Mus musculus with 30 samples.

Results

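This account covers 10 genes of the actin and microtubule cytoskeleton in mouse forebrain: the actins Actb and Actg1, the tubulins Tuba1a, Tubb2a, Tubb3 and Tubb5, the microtubule-associated proteins Map2 and Mapt, and the stathmins Stmn1 and Stmn2. They were taken as every probe set of the array whose annotated symbol is exactly one of these names, with the Affymetrix control probe sets left out, which gave 18 probe sets. A probe set is a group of short probes that together measure a transcript. The array held 22626 such probe sets for 12393 gene symbols, and all 18 were among the 12944 with a mean log2 value of at least 4, which were tested. The genes were selected on measured values of these same arrays, namely how their log2 values differed between arrays numbered 1 to 6 and arrays numbered 7 to 10, so values across that split are a description.

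The clozapine group was 10 male C57BL mice given clozapine, an atypical antipsychotic drug that acts at several receptors, at 12 mg/kg/day for 12 weeks. The haloperidol group was 10 mice given haloperidol, a typical antipsychotic and dopamine D2 receptor antagonist, for which the labels state 1.6 mg/kg/day over the same 12 weeks. The protocol text of this group names clozapine beside that dose. The control group was 10 untreated mice. Both drugs were given in the drinking water, every mouse was housed alone, and the labels give an age of 4 weeks for all of them, which cannot be the age after treatment. Most label fields name the right hemisphere and the tissue field names the left. Each forebrain was hybridised to its own Affymetrix MOE430A array, so a replicate is a mouse. Of 10 forebrain neuron markers, the 5 with a single-gene probe set on the array were all above the level of 4, whereas 1 of 5 cerebellum markers and 0 of the 2 blood markers with a probe set were.

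Values are the authors' GCRMA values on the log2 scale, where a difference of 1 is a doubling of the signal. Array medians lay between 4.63 and 4.88. The arrays control 1, haloperidol 7 and haloperidol 2 correlated least with the rest, with a median Pearson correlation of 0.852, 0.860 and 0.865 across probe sets. In control 1 the 3′ control probe set of Gapdh exceeded the 5′ one by 6.25, and in haloperidol 7 that difference for Actb was 3.19. Such a gap between the ends of a transcript is a common sign of RNA degradation or of incomplete copying into cDNA. In whole tissue, fewer cells of a type and less RNA per cell cannot be told apart.

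Actin monomers assemble into filaments that shape growth cones and dendritic spines, and α- and β-tubulin dimers assemble into the microtubules of axons and dendrites. Map2 and tau, the product of Mapt, bind along microtubules, Map2 mainly in dendrites and tau mainly in axons. Stathmins bind tubulin dimers and favour the disassembly of microtubules. Actb and tubulin genes are also widely used as loading controls.

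The promoter table from RefSeq (GRCm38.p6) holds 6 of the 10 genes: Actg1, Tuba1a, Tubb2a, Tubb3, Tubb5 and Map2. Each entry covers 250 bases before and 50 after the annotated start. A CArG box, the element bound by serum response factor at many actin genes, was found in 1 of the 6, Actg1, and in 1.63% of 32851 promoters of that length. The TATA motif TATAA, searched on both strands, was found in 3 of the 6 (Tuba1a, Tubb2a and Tubb3) and in 24.9% of all promoters. Actg1 is shown because its probe set varied least of the 18, and Tubb2a as the tubulin that differed between replicates 1 to 6 and 7 to 10. Both are read 5′ to 3′ on the minus strand, Actg1 from chr11:120348446-120348745 and Tubb2a from chr13:34077959-34078258. Capitals mark the CArG box, which begins at position -90 from the start, and TATAA, which begins at position -29. These matches describe the sequence and are no measure of binding.
Actg1: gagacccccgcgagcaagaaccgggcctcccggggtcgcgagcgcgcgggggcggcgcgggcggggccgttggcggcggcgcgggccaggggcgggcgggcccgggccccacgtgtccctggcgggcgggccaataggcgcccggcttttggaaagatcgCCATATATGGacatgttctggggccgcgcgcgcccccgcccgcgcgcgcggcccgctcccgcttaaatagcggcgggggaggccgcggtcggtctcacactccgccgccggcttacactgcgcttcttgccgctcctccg
Tubb2a: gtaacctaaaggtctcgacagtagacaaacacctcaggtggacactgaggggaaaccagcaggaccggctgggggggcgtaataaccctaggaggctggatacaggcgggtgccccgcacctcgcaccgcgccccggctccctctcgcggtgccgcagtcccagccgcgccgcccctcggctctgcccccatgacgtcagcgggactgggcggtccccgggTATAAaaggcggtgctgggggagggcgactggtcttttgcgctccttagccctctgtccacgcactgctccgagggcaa

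None of the 18 probe sets differed between treatments after adjustment. Limma called 0 of 18 in clozapine against control, 0 of 18 in haloperidol against control and 0 of 18 in clozapine against haloperidol, at a Benjamini-Hochberg adjusted p under 0.05. The share called over all 12944 probe sets was 0% in each of these 3 comparisons. At unadjusted p under 0.05 the counts were 0, 0 and 1 of the 18, against 563, 298 and 406 of all probe sets (4.35%, 2.3% and 3.14%). The median difference of the 18 was -0.022 for clozapine, -0.0011 for haloperidol and -0.050 for clozapine minus haloperidol, where the medians of all probe sets were 0.023, -0.030 and 0.050. Of the 18, 7 were higher and 11 lower in clozapine than in control, and 9 were higher and 9 lower in haloperidol than in control. The 2 drug comparisons share their control arrays. Without control 1, haloperidol 2 and haloperidol 7 the calls were again 0 of 18 in each comparison.

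Actb encodes cytoplasmic β-actin. Its probe set 1436722_a_at ranged between 12.14 and 14.31 in clozapine arrays (median 13.33), between 13.32 and 14.34 in haloperidol arrays (median 13.92) and between 12.69 and 14.45 in control arrays (median 13.67). The 3 groups overlapped over most of their range. Clozapine minus control was -0.12 (SE 0.23, 95% interval -0.59 to 0.35) and haloperidol minus control was 0.30 (SE 0.23, interval -0.18 to 0.77). The second Actb probe set, 1419734_at, spread far more, between 4.82 and 12.10, and its drug differences were -1.37 (SE 0.97) for clozapine and -0.45 (SE 0.97) for haloperidol.

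Actg1 encodes γ-actin, the other actin of non-muscle cells. Its probe set 1415779_s_at stayed between 12.51 and 12.74 in clozapine arrays (median 12.67), between 12.35 and 12.85 in haloperidol arrays (median 12.71) and between 12.56 and 12.88 in control arrays (median 12.72). The clozapine arrays lay within the span of the other groups. The 95% intervals ran between -0.21 and 0.11 for clozapine minus control and between -0.22 and 0.09 for haloperidol minus control. The suffix _s_at marks probes shared with transcripts of other genes, so signal of near-identical actin sequences may be included.

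The α-tubulin gene Tuba1a, a main component of neuronal microtubules, was measured by 1418884_x_at, whose suffix marks probes similar to other sequences. It lay between 12.94 and 13.63 in clozapine arrays (median 13.30), between 13.08 and 13.59 in haloperidol arrays (median 13.27) and between 13.09 and 13.62 in control arrays (median 13.23). The groups covered nearly the same range, and the differences were -0.03 for clozapine (SE 0.10, interval -0.23 to 0.17) and 0.00 for haloperidol (SE 0.10, interval -0.20 to 0.20).

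Among the β-tubulins, Tubb2a (1427347_s_at) lay between 11.98 and 12.70 in clozapine arrays, between 11.96 and 12.66 in haloperidol arrays and between 11.71 and 12.46 in control arrays, with medians of 12.18, 12.27 and 12.22. Its drug differences were 0.03 (SE 0.11) for clozapine and 0.12 (SE 0.11) for haloperidol. As with Actg1, the suffix _s_at marks probes shared with transcripts of other genes. The weak Tubb2a probe set 1427838_at, with a mean of 4.08 close to the minimum for testing, gave 0.45 (SE 0.48) for clozapine and -0.35 (SE 0.48) for haloperidol.

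Tubb3, the β-tubulin used as a marker of neurons, ranged between 8.44 and 9.64 in clozapine arrays (median 9.21), between 8.32 and 9.66 in haloperidol arrays (median 9.27) and between 8.46 and 9.48 in control arrays (median 9.32). Each group held most arrays near its median and at least 1 array below 8.5. Tubb5, a β-tubulin of many cell types, ranged between 10.65 and 11.09 in clozapine arrays (median 10.88), between 10.63 and 11.54 in haloperidol arrays (median 10.87) and between 10.64 and 11.17 in control arrays (median 10.91) with 1416256_a_at. The groups again overlapped. Differences from control were -0.15 (SE 0.16) and -0.01 (SE 0.10) in clozapine and 0.03 (SE 0.16) and 0.03 (SE 0.10) in haloperidol, for Tubb3 and Tubb5 in that order. The other Tubb5 probe set, 1455719_at, ran between 3.47 and 9.36 and gave 0.13 (SE 0.62) for clozapine and -0.07 (SE 0.62) for haloperidol.

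Map2 (1421328_at) varied more than any tubulin measured by its highest-mean probe set. It ranged between 5.60 and 8.93 in clozapine arrays (median 7.24), between 5.58 and 9.32 in haloperidol arrays (median 7.98) and between 2.85 and 9.49 in control arrays (median 7.46). The value of 2.85 was that of control 1. The differences were -0.19 (SE 0.65) for clozapine and 0.14 (SE 0.65) for haloperidol, with 95% intervals that reached from -1.52 up to 1.14 and from -1.20 up to 1.47. Changes of up to 1 on the log2 scale in either direction lie inside both intervals. The Map2 probe set 1421327_at gave -0.67 (SE 0.73) for clozapine and -0.18 (SE 0.73) for haloperidol.

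Mapt has 3 probe sets, and they did not run together. With 1424719_a_at, the one with the highest mean, clozapine arrays lay between 10.33 and 13.31 (median 10.95), haloperidol arrays between 10.16 and 13.87 (median 12.24) and control arrays between 9.54 and 13.63 (median 10.92). Every group was split into a low and a high set of arrays, described further on. The differences were -0.01 (SE 0.59) for clozapine and 0.66 (SE 0.59) for haloperidol. For clozapine the other Mapt probe sets gave 0.38 (SE 0.29) with 1424718_at and 0.89 (SE 0.54) with 1417885_at, and for haloperidol 0.03 (SE 0.29) and -0.08 (SE 0.54).

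The stathmin gene Stmn1 (1415849_s_at) lay between 12.20 and 12.93 in clozapine arrays (median 12.52), between 12.11 and 12.69 in haloperidol arrays (median 12.47) and between 12.29 and 12.77 in control arrays (median 12.50). The groups overlapped, and the differences were 0.03 (SE 0.10) for clozapine and -0.05 (SE 0.10) for haloperidol. Stmn1 probe set 1448113_at gave -0.06 (SE 0.19) and -0.0043 (SE 0.19). For 1415849_s_at the suffix again marks probes shared with transcripts of other genes.

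Stmn2, also known as SCG10, is the stathmin of growing axons. With 1423280_at it lay between 10.50 and 11.56 in clozapine arrays (median 11.38), between 10.45 and 11.57 in haloperidol arrays (median 10.95) and between 10.49 and 11.65 in control arrays (median 11.30). The differences were 0.01 (SE 0.19) for clozapine and -0.14 (SE 0.19) for haloperidol. With 1423281_at clozapine arrays lay between 9.95 and 11.05 (median 10.85), haloperidol arrays between 10.80 and 11.37 (median 11.04) and control arrays between 10.18 and 11.32 (median 11.09). The clozapine arrays reached lowest and the haloperidol arrays all stood at 10.80 or above. This probe set had the smallest unadjusted p of the 18 both for clozapine minus control (-0.29, SE 0.14, p = 0.0544 by limma) and for clozapine minus haloperidol (-0.33, SE 0.14, p = 0.0272 by limma). Neither passed the adjustment, with limma adjusted p of 1 and 0.965.

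**Figure D1:**
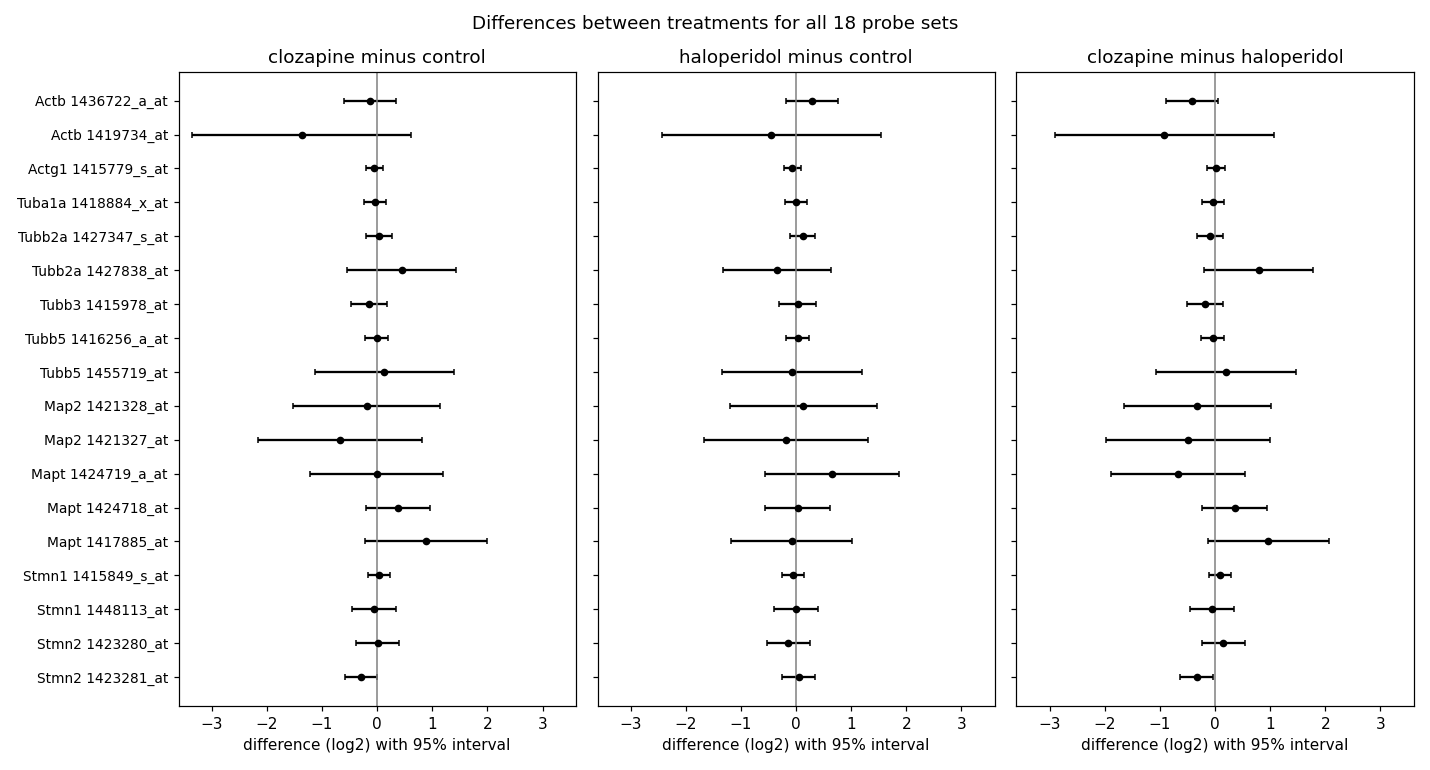
Difference in log2 value with its 95% interval (x axis) for each of the 18 probe sets (y axis), for clozapine minus control, haloperidol minus control and clozapine minus haloperidol. Points for Actg1, Tuba1a and Tubb5 1416256_a_at lie within 0.1 of 0 with narrow intervals, while those for Actb 1419734_at, Map2 and Mapt are wide; only the Stmn2 1423281_at interval of clozapine minus haloperidol, -0.63 to -0.04, leaves out 0, before adjustment.

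The probe sets differed widely in how much they varied between arrays of a group. The SDs come from a fit with treatment alone, so they include any difference between the sets of replicate numbers. The SD within groups was 0.125 for Actg1, 0.188 for Tuba1a, 0.191 for Stmn1 1415849_s_at, 0.199 for Tubb5 1416256_a_at and 0.231 for Tubb2a 1427347_s_at, against a median of 0.435 over all tested probe sets. Only 0.479% of tested probe sets had a smaller SD than Actg1, and 1.4% of the 500 closest to it in mean level. Actb 1436722_a_at had an SD of 0.531, and 93.6% of the 500 probe sets closest in mean level had a smaller one. The SD was 1.40 for Mapt 1424719_a_at, 1.54 and 1.71 for the Map2 probe sets and 2.29 for Actb 1419734_at, which placed them above 97.7% to 99.8% of tested probe sets. The second probe sets of Tubb5 (1455719_at, SD 1.46) and Tubb2a (1427838_at, SD 1.13) lay above 98.1% and 95.3% of them.

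**Figure D2:**
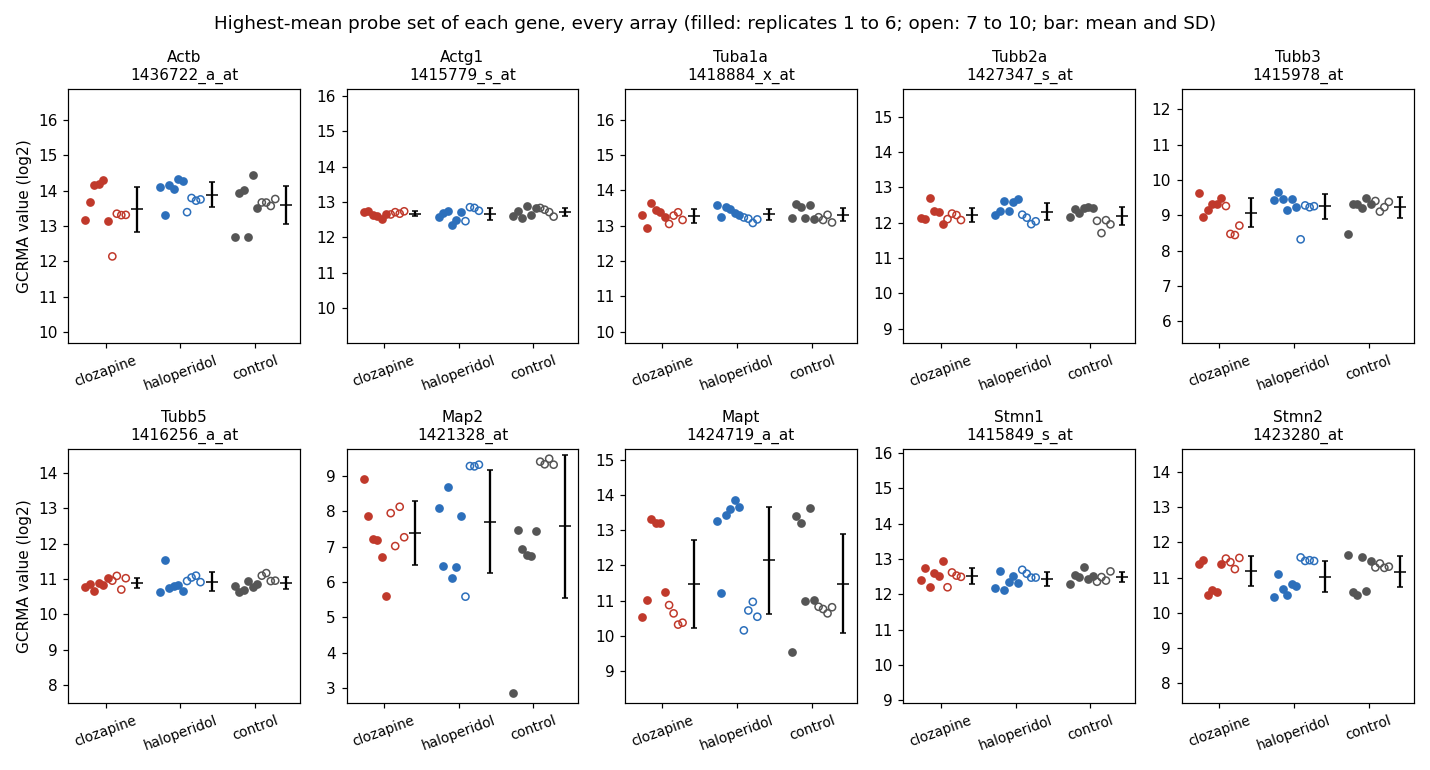
GCRMA log2 value (y axis) of the highest-mean probe set of each gene in every array, by treatment (x axis), filled for replicates 1 to 6 and open for 7 to 10; bars give the mean and SD of 10 arrays, and each panel spans the same number of log2 units around its own centre. Actg1, Tuba1a, Tubb2a, Tubb5 and Stmn1 form narrow bands, with within-group SDs of 0.125 to 0.231, whereas Map2 runs between 2.85 and 9.49 and Mapt between 9.54 and 13.87.

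The replicate numbers in the labels divide the arrays into 18 numbered 1 to 6 and 12 numbered 7 to 10, with 6 and 4 of each group, and what the numbers stand for is not given in the sources used here. Fitted with treatment as a term, limma called 7 of the 18 probe sets (38.9%) between these sets, where 32.1% of all 12944 probe sets were called. By direction, 3 were higher in replicates 1 to 6 (16.7%, against 13.6% of all probe sets) and 4 lower (22.2%, against 18.5%). The 18 were selected in view of this contrast, so nothing is read from these counts. For 0 of the 18 were the 2 sets of arrays free of overlap, and for 0.0464% of all probe sets.

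Of the 3 higher probe sets, Mapt 1424719_a_at differed by 1.77 (SE 0.38), with 12.41 ± 1.38 in replicates 1 to 6 (SD, n = 18) and 10.64 ± 0.24 in replicates 7 to 10 (SD, n = 12). Stmn1 1448113_at differed by 0.58 (SE 0.12) and Tubb2a 1427347_s_at by 0.29 (SE 0.08). The 4 lower ones were Map2 1421328_at with -1.49 (SE 0.48), Mapt 1417885_at with -1.25 (SE 0.39), Mapt 1424718_at with -0.76 (SE 0.20) and Stmn2 1423280_at with -0.49 (SE 0.13). Probe sets of the same gene thus ran in opposite directions for Mapt, and for Stmn2 the second probe set gave 0.16 (SE 0.12). Tubb2a 1427838_at had means of 4.03 in replicates 1 to 6 and 4.16 in replicates 7 to 10. Tubb5 1455719_at had 7.02 and 6.65. Both ran opposite to the other probe set of their gene, and neither was called. Map2 1421327_at, with 6.42 and 7.64, ran the same way as 1421328_at and was not called. Actg1 (-0.06, SE 0.06), Stmn1 1415849_s_at (-0.02, SE 0.08), Tuba1a (0.18, SE 0.07), Tubb3 (0.29, SE 0.13), Tubb5 1416256_a_at (-0.16, SE 0.08) and both Actb probe sets (0.33, SE 0.19 and 0.80, SE 0.81) were not called.

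Within replicates 1 to 6 the arrays were not of one kind. Mapt 1424719_a_at lay between 13.20 and 13.87 in 11 arrays and between 9.54 and 11.25 in the other 19, with a gap of 1.95 between them. The 11 were clozapine 3, 4 and 5, haloperidol 1, 3, 4, 5 and 6, and control 2, 3 and 5. All 11 carried numbers 1 to 6, and every treatment was among them.

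The same 11 arrays stood at an extreme for other genes. They were the 11 highest of 30 for Actb 1436722_a_at, at 13.94 to 14.45, while the remaining arrays reached at most 13.80. They were also the 11 highest for each of the 3 Actb control probe sets that lie at the 3′ end, the middle and the 5′ end of the transcript. For Stmn2 1423280_at they were the 11 lowest, at 10.45 to 10.81, and the remaining arrays lay between 11.09 and 11.65. Of the 11 arrays, 10 were among the 11 highest for Tuba1a, 8 among the 11 highest for Tubb2a 1427347_s_at, 10 among the 11 lowest for Mapt 1424718_at, 9 for Mapt 1417885_at and 8 each for Actg1 and Tubb5 1416256_a_at. Tubb3, the second Stmn2 probe set and Map2 did not separate them: 5, 6 and 2 of the 11 were among the highest. For the control gene Gapdh, 6 of the 11 were among the highest with the 3′ probe set and 4 with the 5′ one. The Actb 3′ minus 5′ difference was 0.697 to 1.02 in the 11 arrays, 1.21 to 2.01 in the other 7 arrays numbered 1 to 6 and 0.946 to 3.19 in the 12 numbered 7 to 10. The 11 arrays thus lay below the rest of replicates 1 to 6 in this measure and overlapped replicates 7 to 10. These arrays were found from their values, so no test was made between them and the rest, and what sets them apart was not tested.

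**Figure D3:**
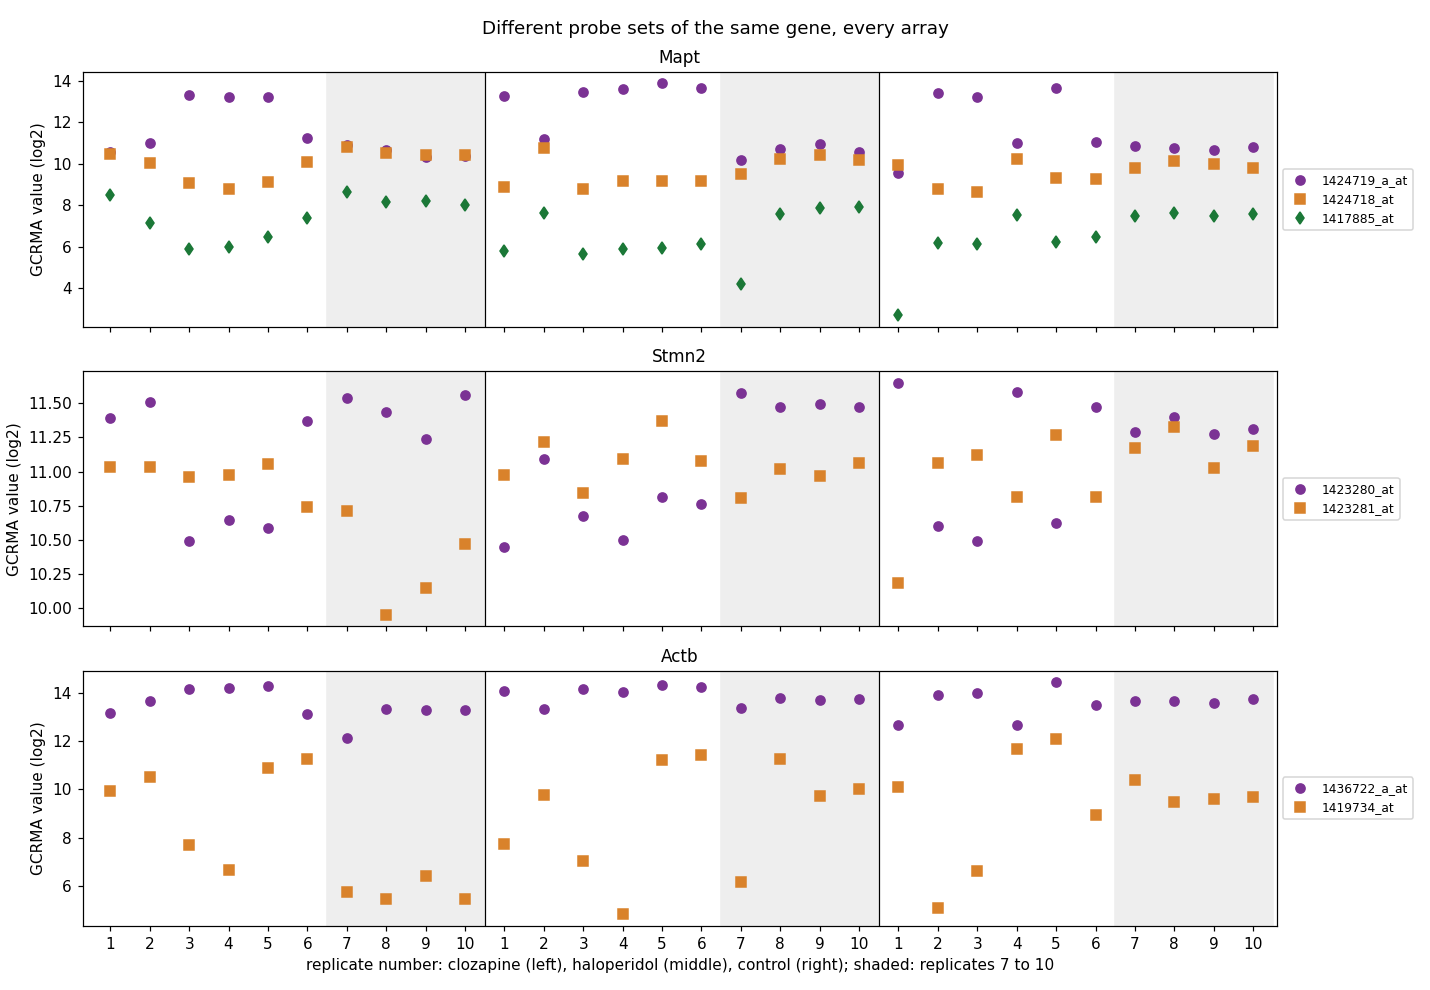
GCRMA log2 value (y axis) of the probe sets of Mapt, Stmn2 and Actb in every array, ordered by treatment and replicate number (x axis); arrays numbered 7 to 10 are shaded and each probe set has its own symbol. In 11 unshaded arrays Mapt 1424719_a_at stands at 13.20 or above while Mapt 1424718_at and Stmn2 1423280_at are low; Stmn2 1423281_at is lowest in clozapine 8, at 9.95.

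Within an array, Mapt 1424719_a_at minus Mapt 1424718_at ranged between -0.41 and 4.72. Its median was 4.27 in replicates 1 to 6 and 0.53 in replicates 7 to 10. The suffix _a_at marks probes that match several transcripts of a single gene, so these probe sets need not measure the same tau transcripts. Stmn2 1423280_at minus 1423281_at ranged between -0.64 and 1.48, with a median of -0.32 in replicates 1 to 6 and 0.49 in replicates 7 to 10. For Stmn1, 1415849_s_at minus 1448113_at was 3.33 to 4.25 in replicates 1 to 6 and 3.98 to 4.80 in replicates 7 to 10. Which exons the probes lie in is not analysed here.

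The treatments were also compared within each set of replicate numbers. Within replicates 1 to 6, limma called 0 of 18 probe sets for clozapine minus control, haloperidol minus control and clozapine minus haloperidol, with 0% of all probe sets called each time. At unadjusted p under 0.05 0, 1 and 0 of the 18 passed in these comparisons, against 2.87%, 11.7% and 5.15% of all probe sets. The 1 was Mapt 1424719_a_at for haloperidol (1.20, SE 0.59, p = 0.0499 and adjusted p = 0.426 by limma), where 5 of 6 haloperidol arrays and 3 of 6 control arrays belonged to the high set above. The groups overlapped for all 18 probe sets in each of these comparisons, while 0.0927%, 0.193% and 0.185% of all probe sets were free of overlap.

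Within replicates 7 to 10, clozapine minus control gave 1 call among the 18 (5.56%), against 4.94% of all probe sets, and the call was Stmn2 1423281_at. Its values were 10.71, 9.95, 10.15 and 10.47 in clozapine 7 to 10, against 11.17, 11.32, 11.03 and 11.19 in control 7 to 10. All 4 clozapine arrays lay below all 4 control arrays. Stmn2 1423281_at was lower by a difference of -0.86 (SE 0.18, limma adjusted p = 0.00649), which is 1.81-fold. Haloperidol 7 to 10 had 10.80, 11.02, 10.97 and 11.06, and clozapine minus haloperidol there was -0.64 (SE 0.18, limma adjusted p = 0.232). For Stmn2 1423280_at, clozapine minus control in the same arrays was 0.12 (SE 0.25), so the gene's 2 probe sets did not run together.

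Within replicates 1 to 6 the same probe set gave 0.09 (SE 0.15) for clozapine minus control. The difference between the 2 effects was 0.95 (SE 0.24, limma adjusted p = 0.042), 1 call among 18 (5.56%) against 1.43% of all probe sets. The same difference for haloperidol gave 0 calls among the 18 (0% of all probe sets). Both differences run across the split in view of which the genes were selected, so they are a description. The clozapine call was lost in fits without 1 array: control 1 (adjusted p = 0.0574 by limma), control 7 (0.0797), control 8 (0.0967), control 9 (0.0597), control 10 (0.0883), clozapine 8 (0.124) and clozapine 9 (0.0752). It was also lost with the Gapdh 3′ minus 5′ difference as a covariate (0.76, limma adjusted p = 0.0879) and with that of Actb (0.79, limma adjusted p = 0.145). The difference within replicates 7 to 10 kept its call in each of these fits, with limma adjusted p of at most 0.0477.

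The 3′ minus 5′ differences, used here as measures of RNA quality, also differed between the same arrays. The Actb 3′ minus 5′ difference was 1.40 to 1.99 in clozapine 7 to 10, 0.952 to 3.19 in haloperidol 7 to 10 and 0.946 to 1.09 in control 7 to 10. The Gapdh difference was 0.247 to 0.605, -0.012 to 1.72 and 0.0545 to 0.206 in the same groups. The clozapine arrays lay above the control arrays in both measures. The mean level of 7 neuronal markers was 11.18 to 11.40 in clozapine 7 to 10, 10.45 to 11.94 in haloperidol 7 to 10 and 11.80 to 11.95 in control 7 to 10, with 2 of the 7 markers higher and 5 lower in clozapine than in control. The 5 forebrain neuron markers ran the other way: 4 were higher and 1 lower, 0 were called, and their mean level was 9.08 to 9.29 in clozapine 7 to 10, 8.82 to 9.35 in haloperidol 7 to 10 and 8.84 to 9.15 in control 7 to 10. In control 1 to 6 the mean level was 11.11 to 11.47 for the neuronal markers and 8.59 to 9.31 for the forebrain neuron markers. Both spans hold the values of clozapine 7 to 10. With the Actb difference as a covariate Stmn2 1423281_at gave -0.72 for clozapine minus control within replicates 7 to 10 (limma adjusted p = 0.0337). Over all probe sets 197 were called in that fit, against 640 without the covariate. Because the covariate did not overlap between these clozapine and control arrays, the fit cannot tell RNA quality and treatment apart. Of 6 microglial markers 4 were higher and 2 lower in clozapine there, with a median difference of 0.38, and the 1 call was the chemokine receptor gene Cx3cr1, which was lower (-2.26, SE 0.44, limma adjusted p = 0.00365). Of 7 astrocyte and 6 oligodendrocyte markers 0 were called. The part of RNA quality and of these cell types in the result was not tested.

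**Figure D4:**
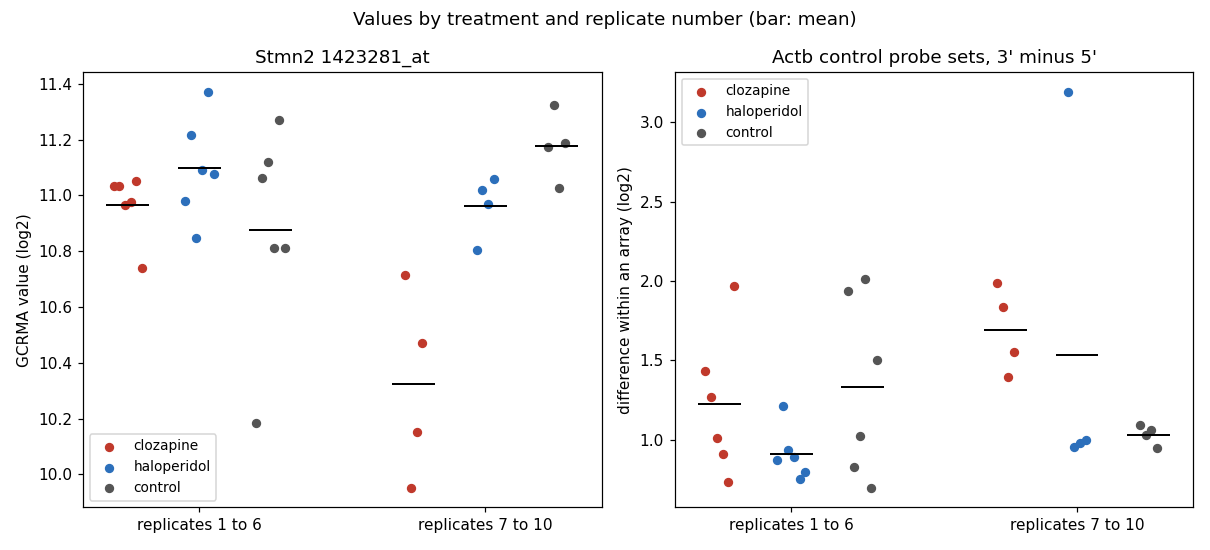
Left, GCRMA log2 value of Stmn2 1423281_at in every array; right, 3′ minus 5′ difference of the Actb control probe sets in log2 units (y axes), by treatment within replicates 1 to 6 and 7 to 10 (x axis), with a bar at the mean. In replicates 7 to 10 the 4 clozapine arrays, at 9.95 to 10.71, lie below the 4 control arrays in the left panel and, at 1.40 to 1.99, above them in the right panel.

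For 8 of the 18 probe sets (44.4%) the clozapine and control arrays 7 to 10 did not overlap, against 35.8% of all probe sets. Lower in clozapine were both probe sets of Actb and of Map2 and Stmn2 1423281_at, and higher were Tubb2a 1427347_s_at, Mapt 1424718_at and Mapt 1417885_at. Map2 1421328_at stood at 7.95, 7.02, 8.13 and 7.27 in clozapine 7 to 10, against 9.41, 9.33, 9.49 and 9.32 in control 7 to 10. It did not pass the test (-1.80, SE 0.84, limma adjusted p = 0.209), and neither did Map2 1421327_at (-2.72, SE 0.996, limma adjusted p = 0.108). In haloperidol 7, Map2 1421328_at was at 5.58, while haloperidol 8 to 10 stood at 9.28, 9.27 and 9.32, next to the controls. Replicates 1 to 6 of all treatments lay between 2.85 and 8.93 for this probe set, a span that holds the values of clozapine 7 to 10. For Stmn2 1423281_at replicates 1 to 6 lay between 10.18 and 11.37. That span holds control 7 to 10, and clozapine 7 to 10 reached below it, to 9.95. What sets these arrays apart was not tested. Tubb3 had 9.26, 8.47, 8.44 and 8.71 in clozapine 7 to 10, against 9.41, 9.11, 9.23 and 9.38 in control 7 to 10, a difference of -0.56 (SE 0.22, limma adjusted p = 0.138). Without control 1, haloperidol 2 and haloperidol 7 together, 5 of the 18 were called, against 20.8% of all probe sets: Stmn2 1423281_at, Tubb3, Actb 1419734_at and both Map2 probe sets, all lower in clozapine. Without haloperidol 7 alone 2 of the 18 were called, against 10.1% of all probe sets. Haloperidol minus control in replicates 7 to 10 gave 0 calls (0% of all probe sets), and 1 of 18 did not overlap (5.56%, against 4.74% of all probe sets), Stmn2 1423280_at, higher in haloperidol. Clozapine minus haloperidol in these arrays gave 0 calls among the 18, against 0.0541% of all probe sets, and 4 of 18 did not overlap (22.2%, against 4.47% of all probe sets): Actb 1436722_a_at and Stmn2 1423281_at, lower in clozapine, and Mapt 1424718_at and Mapt 1417885_at, higher in clozapine.

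Other genes of the cytoskeleton were listed with the members' results known, 82 in all, of which 74 had a tested probe set. Limma called 0 of the 74 in clozapine against control, haloperidol against control and clozapine against haloperidol. The lowest unadjusted p for clozapine among actin regulators was that of Srf, the serum response factor (0.45, SE 0.15, p = 0.00445 and adjusted p = 1 by limma). Among microtubule-associated genes it was that of Kif5c, a kinesin heavy chain (-1.82, SE 0.73), followed by Map1b, a microtubule-binding protein of axons (-1.58, SE 0.65). In haloperidol Srf had 0.34 (SE 0.15) and Pafah1b1, a regulator of dynein, had -0.36 (SE 0.17).

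Within replicates 7 to 10, limma called 6 of the 74 (8.11%) in clozapine against control, where 4.94% of all probe sets were called. Within replicates 1 to 6 it called 0 of the 74 (0% of all probe sets). The clozapine and control arrays 7 to 10 did not overlap in either RNA-quality measure, whose part in these differences was not tested. With the Actb covariate 197 of all probe sets were called there, against 640 without it. Map1b fell by 3.81 (SE 0.79, limma adjusted p = 0.00549), Kif5c fell by 4.33 (SE 0.90, limma adjusted p = 0.00549) and Kif1a, a kinesin that carries synaptic vesicle precursors, fell by 2.10 (SE 0.50, limma adjusted p = 0.0147). The other call among the 4 lower genes was a microtubule-associated gene with a larger p. Mapre1, which binds growing microtubule ends, was higher by 0.83 (SE 0.21, limma adjusted p = 0.0241) and Cttn, an actin-binding protein, by 0.68 (SE 0.19, limma adjusted p = 0.0325). Of 12 other tubulin genes and tubulin cofactors 0 were called, and of 8 intermediate filament genes 0. Clozapine minus control for Kif1a also differed between replicates 1 to 6 and 7 to 10, by 2.53 (SE 0.64, limma adjusted p = 0.0428). This was the 1 call of the 74 in that test (1.35%, against 1.43% of all probe sets). Of the 7 neuronal markers 1 was called in clozapine against control within replicates 7 to 10. It was Rbfox3, the antigen NeuN, which was lower by 2.03 (SE 0.55, limma adjusted p = 0.0326).

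Between replicates 1 to 6 and 7 to 10, 30 of the 74 were called (40.5%, against 32.1% of all probe sets). Of 24 other actin genes and actin regulators 4 were higher and 6 lower in replicates 1 to 6; Tmod2, which caps actin filaments, differed by 2.12 (SE 0.39) and the depolymerising factor Cfl1 by 0.37 (SE 0.07). Of 30 microtubule-associated genes 7 were higher and 6 lower. Dpysl2, which binds tubulin dimers, differed by 2.57 (SE 0.61), with a probe set whose mean of 4.54 was close to the minimum for testing. Gap43, a protein of growth cones, differed by 0.72 (SE 0.15) and Dclk1 by -0.44 (SE 0.10). Of 12 tubulin genes 1 was higher and 2 lower, and of 8 intermediate filament genes 2 were higher, vimentin, Vim, among them (0.51, SE 0.17), and 2 lower, the neurofilament gene Nefl among them (-0.24, SE 0.07). Each list held genes of both directions.

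The probe sets most like Actb, Tuba1a and Mapt were found by their correlation over arrays within replicates 1 to 6 (n = 18) and within 7 to 10 (n = 12), after the treatment means were removed. For Actb 1436722_a_at they were those of Fam81a (Pearson r 0.919 and 0.940), Kcna1 (0.911 and 0.917) and Sertad2 (0.906 and 0.951). For Tuba1a they were Fhdc1 (0.810 and 0.794), Bpnt2 (0.795 and 0.787) and Cdc42ep3 (0.788 and 0.784). For Mapt 1424719_a_at they were Atg16l1 (0.971 and 0.846), Gclc (0.941 and 0.840) and Ogdh (0.870 and 0.829). Within replicates 1 to 6 the arrays fall into the sets described above, which all these values share, so the correlations describe these arrays alone. Within replicates 7 to 10, Actb 1436722_a_at stood at 12.14 in clozapine 7 and at 13.31 to 13.35 in clozapine 8 to 10. That 1 array weighs heavily in the Actb correlations there.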

How the data were processed

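Forebrain RNA of 30 mice was measured on Affymetrix MOE430A arrays. The authors deposited log2 values. The submitters' processing notes name GCRMA as their source, a method that corrects background from probe sequence, normalizes between arrays and summarises probes, and that compresses low values. Its version is not given in the sources used here. The number of arrays limits the precision. Groups and replicate numbers came from the titles. The members and all gene lists were chosen with earlier results of these data known.

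Gene symbols came from the platform annotation: 20380 probe sets had 1 symbol, 691 several and 1555 none. The 64 control probe sets were left out of the tests, and those of Actb and Gapdh served to describe RNA quality and single arrays. Probe sets with a mean of at least 4 entered the test of limma, version 3.58.1, under R, version 4.3.3 (lmFit, eBayes, two-sided, Benjamini-Hochberg over 12944 probe sets, adjusted p under 0.05). The fit of treatments had 27 residual degrees of freedom, and the fit by treatment and set of replicate numbers had 24. It was tested on simulated data. The text names each gene's probe set with the highest mean, its other probe sets where they differ, and up to 4 genes of each list by smallest p. The gene of a list was taken from its probe set with the highest mean. The 3 genes most like a member have the highest of the lower of 2 correlations. Figures used matplotlib 3.10.9. No 2 arrays were identical, and the highest correlation between 2 arrays was 0.994.

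Alternatives were the filter, quantile normalization, array weights, RNA-quality covariates, left-out arrays, other probe sets and a replicate block. Those within replicates 7 to 10 and the Actb covariate were added after the data were seen.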

Additional observations from a re-analysis of the deposited data

Results flagged for a closer look

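Of 54 groups of 10 arrays, 18 probe sets in 3 treatments, 8 held an array whose gap to its nearest neighbour was wide against the range of the group by Dixon's criterion, which by chance marks about 1 group in 20. Of these 8 arrays, 4 were control 1: Tubb3 at 8.46 (nearest value 9.11), Map2 1421328_at at 2.85 (nearest 6.73), Mapt 1417885_at at 2.68 (nearest 6.13) and Stmn2 1423281_at at 10.18 (nearest 10.81). In the same array Gapdh had a 3′ minus 5′ difference of 6.25. The others were Actb 1436722_a_at in clozapine 7 at 12.14 (nearest 13.15), Tubb2a 1427347_s_at in clozapine 3 at 12.70 (nearest 12.35), Tubb3 in haloperidol 7 at 8.32 (nearest 9.17) and Tubb5 1416256_a_at in haloperidol 2 at 11.54 (nearest 11.09).

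The effect of clozapine on Stmn2 1423281_at differed between replicates 1 to 6 and replicates 7 to 10 by 0.95 (SE 0.24, limma adjusted p = 0.042), with 0.09 in replicates 1 to 6 and -0.86 in replicates 7 to 10. The genes were selected in view of this split, so the difference is a description. Over 14 fits without 1 array each, its limma adjusted p ran between 0.0157 and 0.124. The call was also lost with either RNA-quality covariate and with a mean of at least 6. The other Stmn2 probe set was not lower in clozapine 7 to 10, with means of 11.44 there and 11.32 in control 7 to 10.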

How the results depend on the processing

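The absence of calls among the 18 probe sets for haloperidol minus control and clozapine minus haloperidol held under every alternative tried, and for clozapine minus control under all but array weights. Array weights called 3 members there (1731 of all probe sets), 13 between replicates 1 to 6 and 7 to 10 (7865 of all), 9 for clozapine in replicates 7 to 10 (6369 of all) and 5 for its difference between the sets (3356 of all). Without control 1, haloperidol 2 and haloperidol 7 the last 3 counts were 12, 5 and 2, with 6186, 2691 and 1462 of all probe sets. The difference between the sets gave 0 with a mean of at least 6 (51 of all; Stmn2 1423281_at limma adjusted p = 0.0531), 0 with the Gapdh covariate (49) and 0 with the Actb covariate (40), and with no filter 311 of all. For clozapine in replicates 7 to 10 the counts over all were 305 with a mean of at least 6 and 197 with the Actb covariate. Between replicates 1 to 6 and 7 to 10 no filter gave 11373 of 22626.

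Without control 1, haloperidol 2 or haloperidol 7 singly, calls were 0 to 0 for the 3 treatment comparisons and 8 to 9 between replicates 1 to 6 and 7 to 10 (4279 to 4991 of all). Without each of these or of replicates 7 to 10 singly, 14 fits in all, they were 1 to 2 for clozapine in replicates 7 to 10 (199 to 1312 of all) and 0 to 2 for its difference between the sets (12 to 915 of all), with 0 to 0 for haloperidol; the count of 2 came without haloperidol 7 each time. The numbers did not pair the arrays evenly: 17 of 30 same-numbered pairs had deviations with a correlation over 0.1, and 4 of 30 arrays correlated best with their own number. The correlations ran between -0.50, for clozapine and control 4, and 0.80. They were 0.63, 0.70 and 0.73 among the arrays numbered 5, and 0.80, 0.72 and 0.75 between haloperidol and control 8, 9 and 10. With the replicate block 0 members were called in each treatment comparison.

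Some differences between treatments, none of them called, changed sign. With quantile normalization Tuba1a had -0.0092 for haloperidol, and with the Gapdh covariate Tuba1a had -0.0048, Tubb3 -0.048 and Map2 -0.36. Without the 3 arrays Tubb5 had -0.056 for haloperidol and 0.037 for clozapine minus haloperidol. Other probe sets of a gene gave, for clozapine, 0.13 for Tubb5, 0.38 and 0.89 for Mapt, -0.060 for Stmn1 and -0.29 for Stmn2; for haloperidol, -0.45 for Actb, -0.35 for Tubb2a, -0.070 for Tubb5, -0.18 for Map2, -0.082 for Mapt and 0.046 for Stmn2; and for clozapine minus haloperidol, 0.79 for Tubb2a, 0.20 for Tubb5, 0.36 and 0.97 for Mapt, -0.06 for Stmn1 and -0.33 for Stmn2. The cause of these changes was not tested.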
